A study of Mus musculus with 6 samples.

Results

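The 10 genes described here lie outside the glucocorticoid-response list and are given across the cell types of the injured mouse spinal cord. They had been noted as higher in oligodendrocytes or other glia of mice that received targeted epidural electrical stimulation. The genes are Wbscr17, Rnpep, Ptgfrn, Itga5, Arrdc2, Arl4d, Megf6, Gli2, Hif3a and Rnf125, and they were taken by symbol as 10 of the 19954 genes in the deposited count table. The values that chose them are those of the stimulated against the unstimulated libraries in glia, so in glia that contrast is given as a description. Neurons and endothelial cells were not used for the choice, although they come from the same libraries.

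All animals were wild-type C57BL/6 mice with a severe contusion of the thoracic cord and paralysed legs. They spent 30 min on a treadmill with the stimulation (TESS, 3 libraries) or without it (CON, 3 libraries, labelled paralyzed). The series text speaks of agonists of the 5-HT1a and D1 receptors given with TESS. Whether CON mice received them is not clear from it, so stimulation, walking and agonists cannot be told apart here. The label gives lumbar cord as the tissue, whereas the extraction protocol speaks of the thoracic lesion site. Ages, sexes and the number of animals behind each library are not stated in the labels, so p-values measure the spread between libraries, which may be technical.

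The libraries are single-nucleus RNA-seq (10x version 2 chemistry, 5000 nuclei loaded), and the values are UMI counts, that is, counts of captured RNA molecules. The table held 18514 nuclei with 1582104 to 2891177 UMIs in the TESS libraries and 3365530 to 4037976 in the CON libraries. Oligodendrocytes, in the authors' annotation, made up 1376, 1192 and 1005 nuclei of TESS 1, 2 and 3, against 1668, 1734 and 1862 of CON 1, 2 and 3. Their median UMIs per nucleus were 328 to 492 in TESS and 397 to 536 in CON libraries. The myelin genes Mbp, Mag, Mog and Mobp each had their highest level in these nuclei, at means over the 6 libraries of 4134, 2759, 1881 and 1386 CPM (counts per 1000000 UMIs of the cell type), so the label holds. Between 7 and 20 cell barcodes were shared by each of the 15 pairs of libraries, and 411 nuclei carried a shared one. TESS 1, CON 1 and CON 2 carry 1 batch number in the deposited metadata, and each other library has its own. What that number stands for is not stated.

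Oligodendrocytes are the glia that wrap axons in myelin. The 10 genes do not form a known pathway. Arrdc2 is an alpha-arrestin, a class of adaptors that bring ubiquitin ligases of the Nedd4 family to membrane proteins, and Arl4d is a small GTPase that recruits activators of Arf6 to the plasma membrane. Hif3a is an alpha subunit of the hypoxia-inducible factors, some of whose splice forms restrain the other alpha subunits. Gli2 is a transcription factor that acts at the end of the hedgehog pathway. Wbscr17, now named Galnt17, belongs by sequence to the polypeptide GalNAc-transferases, the enzymes that begin mucin-type O-glycosylation. Rnpep is aminopeptidase B, which removes basic residues from the start of peptides, and Rnf125 is a RING ubiquitin ligase known in human cells for acting on the RNA sensor RIG-I. Megf6 is a protein with many EGF-like repeats. Itga5 is the alpha chain of the fibronectin receptor, and Ptgfrn is an immunoglobulin-domain protein that binds the tetraspanins Cd9 and Cd81.

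Promoter sequence was read from RefSeq (GRCm38.p6) for 9 of the 10 genes, in a window from 250 bases before to 50 bases after the start. The 250 bases before the start are printed for Arrdc2 and Arl4d, the members with the largest share of their UMIs in oligodendrocytes, and for Hif3a, the hypoxia-pathway member. Arrdc2 lies at chr8:70835129-70839720 (minus strand), Arl4d at chr11:101665541-101667832 (plus strand) and Hif3a at chr7:17031507-17062427 (minus strand), and the printed stretches are chr8:70839721-70839970, chr11:101665291-101665540 and chr7:17062428-17062677. Each is written 5′ to 3′ on the strand of its gene. Capitals mark the core GCGTG or its reverse complement CACGC, and in Arl4d also TGACGTCA.
Arrdc2: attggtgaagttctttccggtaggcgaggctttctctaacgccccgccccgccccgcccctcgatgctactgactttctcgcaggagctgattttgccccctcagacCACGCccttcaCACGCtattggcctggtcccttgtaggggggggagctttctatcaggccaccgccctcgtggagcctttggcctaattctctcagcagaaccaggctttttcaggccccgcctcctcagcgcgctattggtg
Arl4d: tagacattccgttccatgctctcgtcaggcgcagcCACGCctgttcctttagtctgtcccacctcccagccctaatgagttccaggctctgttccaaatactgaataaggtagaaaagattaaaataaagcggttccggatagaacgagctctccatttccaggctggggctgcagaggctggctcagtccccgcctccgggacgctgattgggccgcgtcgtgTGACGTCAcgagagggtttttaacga
Hif3a: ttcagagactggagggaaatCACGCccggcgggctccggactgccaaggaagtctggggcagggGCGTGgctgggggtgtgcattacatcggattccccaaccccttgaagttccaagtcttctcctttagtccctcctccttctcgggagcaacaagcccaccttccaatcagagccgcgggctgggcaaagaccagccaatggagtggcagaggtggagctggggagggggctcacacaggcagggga

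The matches are counted over the whole window of 300 bases, on both strands. GCGTG, one form of the hypoxia-response core, was found in 6 of the 9 members and in 32.4% of all 32851 promoter windows. It begins at positions -143 and -132 in Arrdc2, at -215 in Arl4d and at -230 and -186 in Hif3a, counted from -1 as the last base before the start. ACGTG, the other form, was found in Ptgfrn and in 19.6% of all windows. The cAMP-response palindrome TGACGTCA begins at -26 in Arl4d and occurs in 1.79% of all windows. The full glucocorticoid-receptor palindrome (0.00913% of windows), a looser form of it (0.475%), the AP-1 motif TGANTCA (7.81%) and the GLI motif GACCACCCA (0.253%) had no match in the 9 members. G and C made up 62.0% of the printed stretch in Hif3a, 60.4% in Arrdc2 and 54.4% in Arl4d. Over all windows the median was 52.4%, with quartiles of 45.2% and 61.2%.

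In oligodendrocytes 8 of the 10 genes were detected well enough to be tested, and all 8 were higher in TESS. Megf6, Gli2 and Rnf125 passed the filter on low counts only through their TESS libraries. Their highest CON libraries stood at 5.73, 8.02 and 6.88 CPM. Arl4d and Hif3a, each low in CON 2, also needed TESS libraries to pass. For these genes a higher level in TESS was thus partly set by the filter. The fold changes of all 8 tested members lay between 1.37 and 1.99 on the log2 scale. Itga5 and Ptgfrn were at or near 0 in these nuclei. Of all 8796 genes tested there, 1.07% were called higher (94 genes: the 8 members, 6 genes of the glucocorticoid list and 80 others) and 1.65% were called in either direction, where called means an adjusted p under 0.05 in edgeR's quasi-likelihood test. The members were chosen on this contrast, and nothing is read from their count. The groups did not overlap for any of the 8 members, as was the case for 19.6% of all tested genes.

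**Figure D1:**
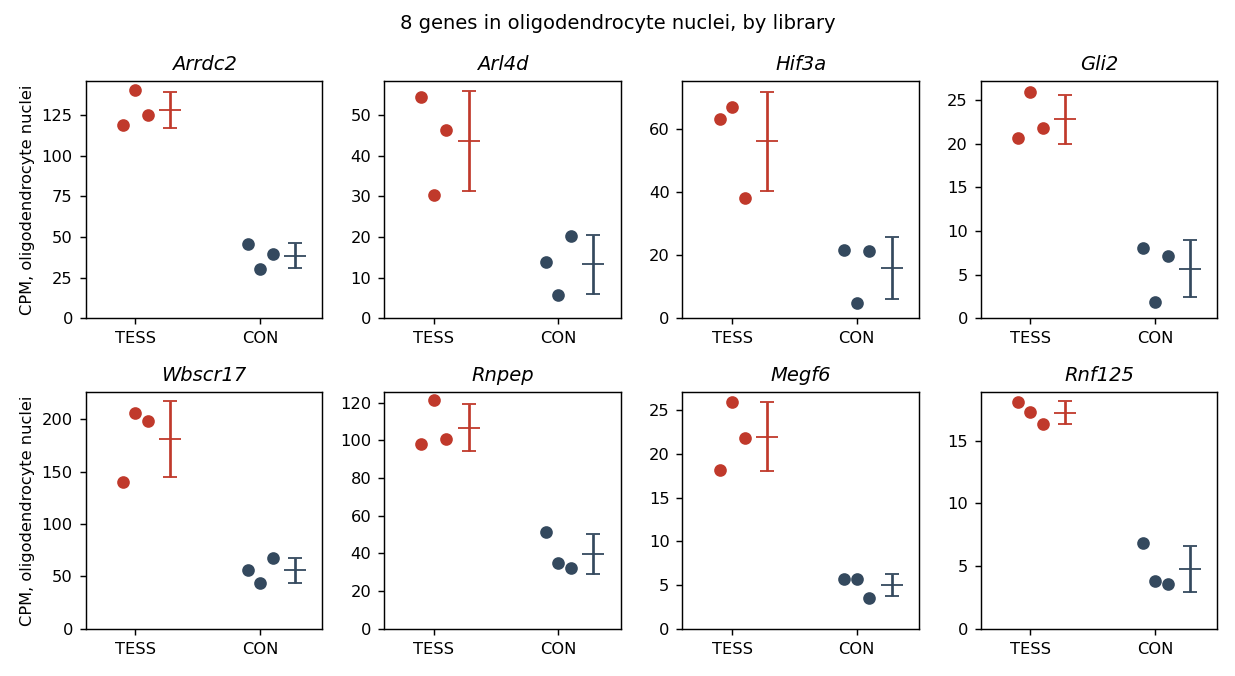
Level of 8 genes in oligodendrocyte nuclei, in CPM on axes that start at 0, with 1 dot per library (TESS left, CON right) and mean ± SD over 3 libraries beside the dots. In each panel all 3 TESS dots lie above all 3 CON dots, for example 118.9 to 140.6 against 30.4 to 45.8 CPM for Arrdc2.

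The 2 genes tied to trafficking at the cell surface had the largest shares of their UMIs in oligodendrocytes. Arrdc2 was measured at 118.9, 140.6 and 125.1 CPM in TESS 1, 2 and 3, against 45.8, 30.4 and 39.3 CPM in CON 1, 2 and 3. The TESS libraries were close together and all lay above the CON libraries. The log2 fold change of Arrdc2 was 1.69 ± 0.21 (SE), from 203 UMIs in TESS and 105 in CON oligodendrocytes, and 85.6% of all Arrdc2 UMIs in the table came from oligodendrocytes. In the other 5 types together it was found with few UMIs: precursor cells, next in level, averaged 22.5 CPM in TESS (4 UMIs) and 12.6 CPM in CON (3 UMIs).

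Arl4d was measured at 54.3, 30.3 and 46.2 CPM in TESS oligodendrocytes and at 13.8, 5.7 and 20.2 CPM in CON oligodendrocytes. Both groups varied, but every TESS library exceeded every CON library. Its log2 fold change was 1.74 ± 0.36, from 73 UMIs in TESS and 35 in CON, and 67.1% of its UMIs came from oligodendrocytes. Endothelial cells had the highest mean level, 100 ± 91.1 CPM in TESS and 48.3 ± 18.3 CPM in CON (SD, n = 3 each), on 10 and 7 UMIs. TESS 3 alone gave 7 of those 10. The endothelial groups overlap, since TESS 1 and TESS 2 (38.5 and 57.5 CPM) lay within the CON range of 36.3 to 69.4 CPM.

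The wider lists of these 2 genes held no further call. Of 9 tested alpha-arrestins and partner ligases 1 was called higher, Arrdc2 itself, and none lower, with a list median of -0.07 on the log2 scale, beside -0.01 over all genes. Arrdc3, a close relative of Arrdc2, averaged 235 CPM in TESS and 197 CPM in CON, a log2 fold change of 0.20 ± 0.17 (edgeR adjusted p = 0.626). Of 13 tested genes of the Arl4 and Arf6 list 1 was called higher, Arl4d, with a median of 0.14.

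The 2 transcription factors are genes with high levels in astrocytes. Hif3a was measured at 63.4, 67.1 and 38.1 CPM in TESS oligodendrocytes and at 21.8, 4.8 and 21.4 CPM in CON oligodendrocytes, a log2 fold change of 1.85 ± 0.35 on 94 and 42 UMIs. CON 2 was the lowest library, far under the other CON values, and the groups did not overlap. In astrocytes Hif3a stood at 148, 142 and 171 CPM in TESS and at 218, 33.2 and 160 CPM in CON, where CON 2 was again the lowest. The astrocyte groups overlapped, and the log2 fold change there was -0.01 ± 0.34. Oligodendrocytes held 46.6% of all Hif3a UMIs and astrocytes 41.4%.

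Gli2 was measured at 20.7, 26.0 and 21.8 CPM in TESS oligodendrocytes and at 8.0, 1.9 and 7.1 CPM in CON oligodendrocytes. The log2 fold change was 1.97 ± 0.46, on only 36 and 15 UMIs. Astrocytes held 61.4% of the Gli2 UMIs, at 162, 76.7 and 183 CPM in TESS and 105, 158 and 160 CPM in CON. These astrocyte groups overlapped (log2 fold change -0.01 ± 0.34), and in both conditions the astrocyte range lay above the oligodendrocyte range. The sign of both astrocyte values turned under other settings, which are listed at the end.

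No other gene of these pathways was called. Of 15 tested genes of the hypoxia-inducible factor list, 1 was called higher in oligodendrocytes, Hif3a, and none lower, with a median of 0.01. Hif1a, the best-known alpha subunit, averaged 51.1 CPM in TESS and 50.1 CPM in CON oligodendrocytes (log2 fold change 0.01 ± 0.24, adjusted p = 0.990). Slc2a1, a glucose transporter and classical hypoxia target, stood at 75.5 and 70.3 CPM (0.02 ± 0.22, adjusted p = 0.984). Of 5 tested hedgehog genes 1 was called, Gli2, with a median of 0.33. Ptch1, the hedgehog receptor and a target of Gli factors, averaged 94.7 CPM in TESS and 81.5 CPM in CON (0.15 ± 0.21, adjusted p = 0.821).

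The 3 enzymes each had a highest level outside oligodendrocytes. Wbscr17 was measured at 139.6, 205.5 and 198.5 CPM in TESS oligodendrocytes and at 56.2, 43.7 and 67.8 CPM in CON oligodendrocytes. Its log2 fold change was 1.63 ± 0.21 on 276 and 152 UMIs, the largest UMI counts among the members. Neurons held 86.5% of its UMIs, at 294, 237 and 334 CPM in TESS and 296, 252 and 265 CPM in CON. In TESS the oligodendrocyte range lay below the neuron range and above that of microglia and astrocytes, while in CON it overlapped that of precursor cells (43.4 to 107 CPM) and endothelial cells.

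The other GalNAc-transferases included a second call. Galntl6 averaged 156 CPM in TESS and 73.9 CPM in CON oligodendrocytes and was called higher, at 0.98 ± 0.23 (adjusted p = 0.0267). The remaining 10 of the 12 tested enzymes of the family were not called, among them the abundant Galnt6 (234 and 193 CPM, 0.21 ± 0.17, adjusted p = 0.636). The family's median was 0.26.

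Rnpep was measured at 98.3, 121.2 and 100.6 CPM in TESS oligodendrocytes and at 51.6, 35.2 and 32.1 CPM in CON oligodendrocytes. The log2 fold change was 1.37 ± 0.22, the smallest of the 8, on 169 and 109 UMIs. Microglia had the highest level, at 203, 80.8 and 207 CPM in TESS and 150, 135 and 130 CPM in CON. The microglial groups overlapped, with TESS 2 lowest on 6 UMIs, and the log2 fold change there was 0.25 ± 0.33. In TESS the oligodendrocyte range overlapped that of microglia, and in CON it lay below it. Of 6 tested M1 aminopeptidases, the family of Rnpep, 1 was called, Rnpep, with a median of 0.10, and its nearest relative by name, Rnpepl1, averaged 42.8 CPM in TESS and 42.5 CPM in CON.

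Rnf125 was measured at 18.1, 17.3 and 16.3 CPM in TESS oligodendrocytes and at 6.9, 3.8 and 3.6 CPM in CON oligodendrocytes. The TESS values were close together, the CON values rest on 13 UMIs in all, and the log2 fold change was 1.80 ± 0.47. By adjusted p this gene lay just inside the threshold in oligodendrocytes, beside Dtnbos (log2 fold change 0.82). Just outside it were Syt1 (0.99), which is among the neuron markers used below, and Gm28928 (1.13). Endothelial cells had the highest Rnf125 level, as given below. No Rnf125 UMI was found in astrocytes or precursor cells, which allows up to 12.1 CPM in TESS and 5.68 CPM in CON astrocytes (3 UMIs over the group, counting error only). Of 7 tested genes of the Rnf125 and RIG-I list 1 was called, Rnf125, with a median of -0.10.

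Megf6, a surface or secreted protein, was measured at 18.1, 26.0 and 21.8 CPM in TESS oligodendrocytes and at 5.7, 5.7 and 3.6 CPM in CON oligodendrocytes. Its log2 fold change of 1.99 ± 0.44 was the largest of the 8, on 34 and 14 UMIs. Of 4 tested genes with related EGF repeats 1 was called, Megf6, with a median of 0.44. Megf10, a phagocytic receptor, averaged 277 CPM in TESS and 229 CPM in CON (0.23 ± 0.17, adjusted p = 0.577).

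Itga5 and Ptgfrn were near 0 in oligodendrocytes, and neither was called in any cell type. In oligodendrocytes Itga5 had 5 UMIs in TESS and 2 in CON, and Ptgfrn had 6 and 2, so neither passed the filter on low counts there. Fitted without the filter they gave 1.82 ± 1.23 (adjusted p = 0.687) and 2.03 ± 1.17 (adjusted p = 0.589). Both had their highest level in another glial type. Itga5 was measured in microglia at 217, 283 and 188 CPM in TESS and 141, 128 and 97.7 CPM in CON. The groups did not overlap, the log2 fold change was 0.86 ± 0.30 on 62 and 43 UMIs, and it was not called (edgeR adjusted p = 0.170, and 0.122 to 0.900 over the alternatives).

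Ptgfrn was measured in oligodendrocyte precursor cells, the dividing cells that give rise to oligodendrocytes, at 436, 540 and 347 CPM in TESS and 224, 214 and 188 CPM in CON. These groups did not overlap either, and the log2 fold change was 1.03 ± 0.29 on 78 and 58 UMIs, not called (adjusted p = 0.148, and 0.0633 to 0.996 over the alternatives). Groups that do not overlap were found for 17.4% of the genes tested in microglia and 13.3% of those in precursor cells. The share of genes called higher was 0.44% in microglia, 0.155% in precursor cells and 0.781% in astrocytes.

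The partners of these 2 surface proteins were measured in oligodendrocytes. None of 5 tested integrin genes was called, and Itgb1, the beta chain that pairs with Itga5, averaged 66.9 CPM in TESS and 74.2 CPM in CON (-0.20 ± 0.21, adjusted p = 0.735). Of 7 tested EWI proteins and tetraspanins none was called higher and 1 was called lower. That gene was Cd81, a tetraspanin bound by Ptgfrn, which averaged 1354 CPM in TESS and 2177 CPM in CON oligodendrocytes, a log2 fold change of -0.73 ± 0.15 (adjusted p = 0.0148). Cd81 was also called lower in neurons (-0.52 ± 0.12, adjusted p = 0.0422), and the list median in oligodendrocytes was -0.35.

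**Figure D2:**
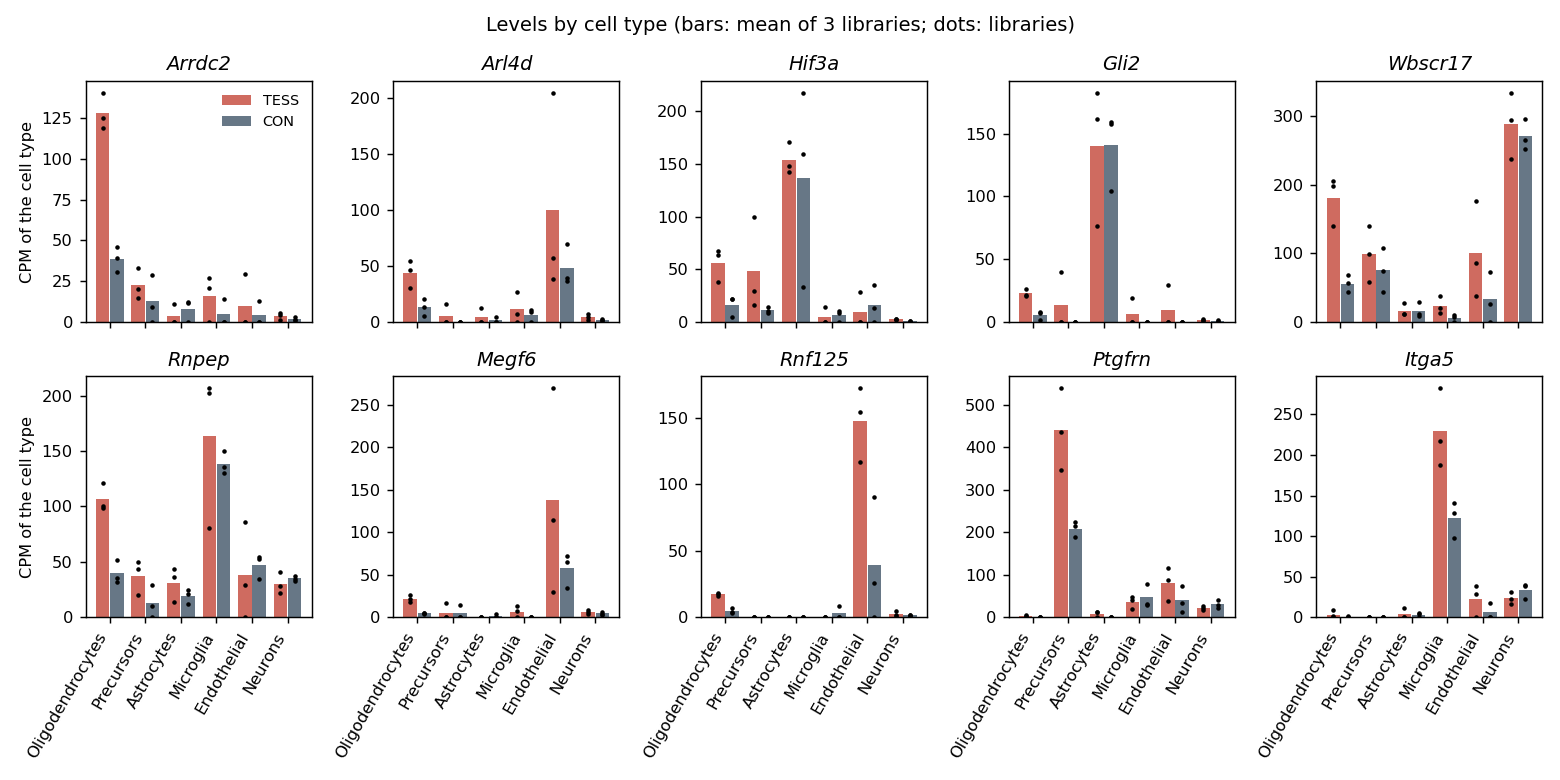
Level of each of the 10 genes in 6 cell types, in CPM on axes that start at 0; bars are means of 3 libraries (TESS left, CON right of each pair) and dots are libraries. Arrdc2 is highest in oligodendrocytes, Hif3a and Gli2 in astrocytes, Rnpep and Itga5 in microglia, Ptgfrn in precursor cells, Wbscr17 in neurons, and Arl4d, Megf6 and Rnf125 in endothelial cells.

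The order of cell types differed among the members and is a description, since the types were defined from these nuclei. Arrdc2 was the only one of the 10 with its highest mean in oligodendrocytes in both conditions, with a range apart from that of precursor cells, the next type. Oligodendrocytes were in second place in both conditions for Arl4d, Megf6, Gli2, Hif3a and Rnf125. For Gli2, Hif3a and Megf6 their range lay apart from that of the leading type in both conditions. For Megf6 this rests on few UMIs: the lowest endothelial libraries, TESS 3 (29.3 CPM) and CON 2 (34.7 CPM), had 1 UMI each. The oligodendrocyte range overlapped that of the leading type for Arl4d in TESS and for Rnf125 in CON. In second place, Hif3a in TESS oligodendrocytes (56.2 ± 15.8 CPM) could not be separated from TESS precursor cells (48.5 ± 45.0 CPM, 8 UMIs). The places below it rest on few UMIs.

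In neurons, which were not used to choose the genes, none of the 5 members tested was called by edgeR, beside 0.274% of 11686 genes called higher and 1.04% called in either direction. DESeq2, the other tool, also called none, and gave an adjusted p for only 1 of the 5. Wbscr17 averaged 288 ± 48.9 CPM in TESS and 271 ± 22.3 CPM in CON neurons (SD, n = 3 each), with a log2 fold change of 0.06 ± 0.12 (adjusted p = 0.870). Itga5 had 22.7, 31.2 and 16.3 CPM in TESS and 40.1, 38.8 and 22.9 CPM in CON neurons, with overlapping groups (-0.52 ± 0.24, unadjusted p = 0.0407, adjusted p = 0.315). Ptgfrn had 18.3, 21.8 and 26.4 CPM in TESS and 39.8, 29.2 and 22.4 CPM in CON neurons, also overlapping (-0.52 ± 0.23, unadjusted p = 0.0329, adjusted p = 0.294). For these 2 genes the estimate in neurons thus lay below 0. In microglia (Itga5) and precursor cells (Ptgfrn) it lay above 0. The contrast in glia chose the members, so that sign was largely set by the choice. The difference between cell types was not tested.

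The remaining neuron values were smaller or rest on few UMIs. Rnpep averaged 30.5 CPM in TESS and 35.1 CPM in CON neurons (-0.28 ± 0.21, adjusted p = 0.566), and Megf6 averaged 6.26 CPM in TESS and 4.56 CPM in CON neurons (0.35 ± 0.41, adjusted p = 0.741). Without the filter on low counts the other 5 members could be fitted in neurons. Hif3a gave 1.88 ± 0.83 (adjusted p = 0.322), Arl4d 1.33 ± 0.63 (0.382) and Arrdc2 1.22 ± 0.61 (0.428), all above 0 and none called. The mean TESS levels of these 3 genes in neurons were 2.79, 4.38 and 3.69 CPM, on 12, 17 and 18 UMIs. The Hif3a groups in neurons did not overlap (2.22 to 3.12 CPM in TESS, 0.467 to 0.772 in CON), as for 19.6% of the genes tested there. Gli2 gave 0.42 (edgeR adjusted p = 0.927) and Rnf125 0.67, neither called.

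In endothelial cells, the other type not used for the choice, no member passed the filter on low counts, so none was tested, and 0.858% of the 583 genes tested there were called higher. Only 91 TESS and 130 CON nuclei carried this label. Rnf125 was measured at 154, 172 and 117 CPM in TESS (4, 6 and 4 UMIs) and at 26.2, 0 and 90.8 CPM in CON (2, 0 and 5 UMIs). The groups did not overlap, as for 22.6% of the genes tested. Fitted without the filter it gave 1.49 ± 0.73 (adjusted p = 0.818). Megf6 was measured at 270, 115 and 29.3 CPM in TESS and 65.5, 34.7 and 72.6 CPM in CON endothelial cells, with overlapping groups.

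**Figure D3:**
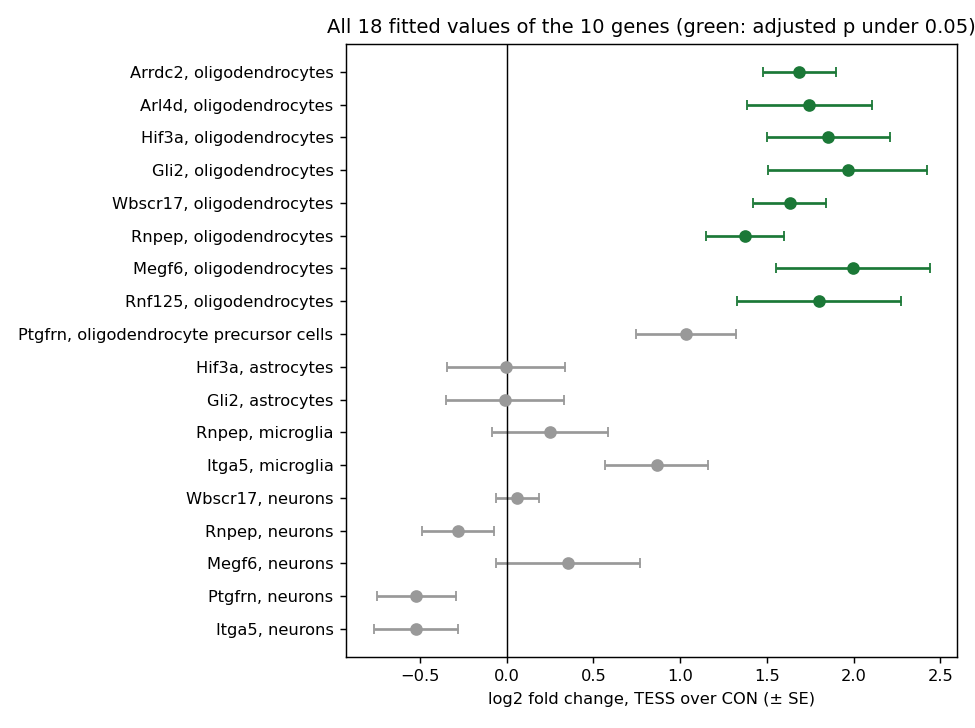
Log2 fold change of TESS over CON (± SE) for all 18 pairs of gene and cell type that were tested, with cell types down the page. The 8 values in oligodendrocytes lie between 1.37 and 1.99, and the other 10 between -0.52 and 1.03, none of them called. The contrast in oligodendrocytes and other glia chose the genes, so only the values in neurons lie outside the choice.

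The share of oligodendrocyte nuclei with a UMI was low for every member, and no nucleus held more than 3 UMIs of one of them. Because depth differed between libraries (the oligodendrocytes of TESS 2 and TESS 3 were the shallowest), the shares were computed for a draw of 300 UMIs from each nucleus, which left out 840 TESS and 520 CON nuclei below that depth. Wbscr17 was then found in 4.95 ± 1.15% of TESS and 1.45 ± 0.513% of CON oligodendrocytes (SD, n = 3 each), against 6.69% and 2.69% at full depth. In astrocytes, where its level was low, the shares at 300 UMIs were 0.43% in TESS and 0.48% in CON. Arrdc2 was found in 3.59 ± 0.502% of TESS and 1.25 ± 0.296% of CON oligodendrocytes, and in 0.15% of TESS and 0.23% of CON astrocytes. The median depth of the astrocytes was 473 to 754 UMIs in TESS and 635.5 to 895.5 in CON libraries.

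The other tested members followed the same order at 300 UMIs. Rnpep was found in 3.03% of TESS and 1.16% of CON oligodendrocytes, Hif3a in 1.71% and 0.541%, and Arl4d in 1.23% and 0.531%. Gli2 was found in 0.794% of TESS and 0.208% of CON nuclei, Megf6 in 0.613% and 0.103%, and Rnf125 in 0.501% and 0.157%. The sizes depended on the depth. Of the shares at 500 UMIs or full depth, 26 moved by more than the SD at 300 UMIs and 14 did not. The ratio of TESS over CON was 2.87 for Arrdc2 at 300 UMIs and 1.82 at 500, and 3.81 and 7.02 for Gli2. At full depth, nuclei with a UMI of at least 1 of the 10 genes made up 25.3%, 21.6% and 17.2% of TESS 1, 2 and 3 oligodendrocytes, against 10.2%, 7.44% and 8.38% in CON 1, 2 and 3. Nuclei with at least 2 of them made up 2.98%, 1.51% and 1.59% in TESS and 0.30%, 0.173% and 0.376% in CON. Most TESS nuclei thus gave no UMI of any member at this depth, which does not show that the genes were silent in them.

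Markers of other cell types were also present in the oligodendrocyte nuclei. The 6 astrocyte markers summed to 468 to 515 CPM in TESS and 300 to 450 CPM in CON oligodendrocytes, so these ranges did not overlap, and neither did those of the 6 neutrophil and blood markers (262 to 462 and 149 to 238 CPM). The 7 neuron markers gave 1361 to 2463 CPM in TESS and 1137 to 1508 CPM in CON, and the 6 microglia markers 147 to 200 and 135 to 153 CPM. The 6 endothelial markers gave 8.2 to 11.6 CPM in TESS and 4.6 to 16.7 CPM in CON, with Cdh5 and Ly6c1 at 0. Ependymal markers gave 10.8 to 19.0 CPM in TESS and 3.8 to 10.7 CPM in CON, also without overlap. Pericyte and fibroblast markers gave 9.1 to 27.2 and 5.7 to 15.5 CPM. Schwann cell markers gave 117 to 201 and 145 to 160 CPM, and precursor markers 54.3 to 122 and 49.3 to 69.0 CPM. The part of the blood, ependymal, pericyte, Schwann cell and precursor markers in the members' values was not tested.

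The members were therefore set against the markers of the type in which they were highest. For each 1000 neuron-marker UMIs there were 103 Wbscr17 UMIs in TESS and 41.0 in CON oligodendrocytes, but 15.3 in TESS and 14.4 in CON neurons. For each 1000 astrocyte-marker UMIs there were 120 Hif3a UMIs in TESS and 42.6 in CON oligodendrocytes, against 16.5 in TESS and 21.7 in CON astrocytes. Gli2 gave 46.1 in TESS and 15.2 in CON oligodendrocytes, against 14.8 in TESS and 18.5 in CON astrocytes. The pooled Gli2 value of CON oligodendrocytes thus lay within the range of the astrocyte libraries (8.33 to 23.6), and in TESS oligodendrocytes above it. In astrocytes the astrocyte markers themselves summed to 9176 to 9589 CPM in TESS and 6674 to 7461 CPM in CON. The ratios in TESS and CON astrocytes thus have unlike denominators. For each 1000 microglia-marker UMIs there were 587 Rnpep UMIs in TESS and 271 in CON oligodendrocytes, against 11.7 in TESS and 8.46 in CON microglia. The endothelial markers had only 17 UMIs in TESS and 26 in CON oligodendrocytes, so ratios to them are rough. For each 1000 of them there were 1346 Arl4d, 538 Megf6 and 500 Rnf125 UMIs in CON oligodendrocytes. In CON endothelial cells there were 3.72, 5.32 and 3.72. In TESS the values were 4294, 2000 and 1647 in oligodendrocytes, against 7.73, 9.28 and 10.8 in endothelial cells. In oligodendrocytes Arl4d had 73 UMIs in TESS and 35 in CON, Megf6 34 and 14, and Rnf125 28 and 13.

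**Figure D4:**
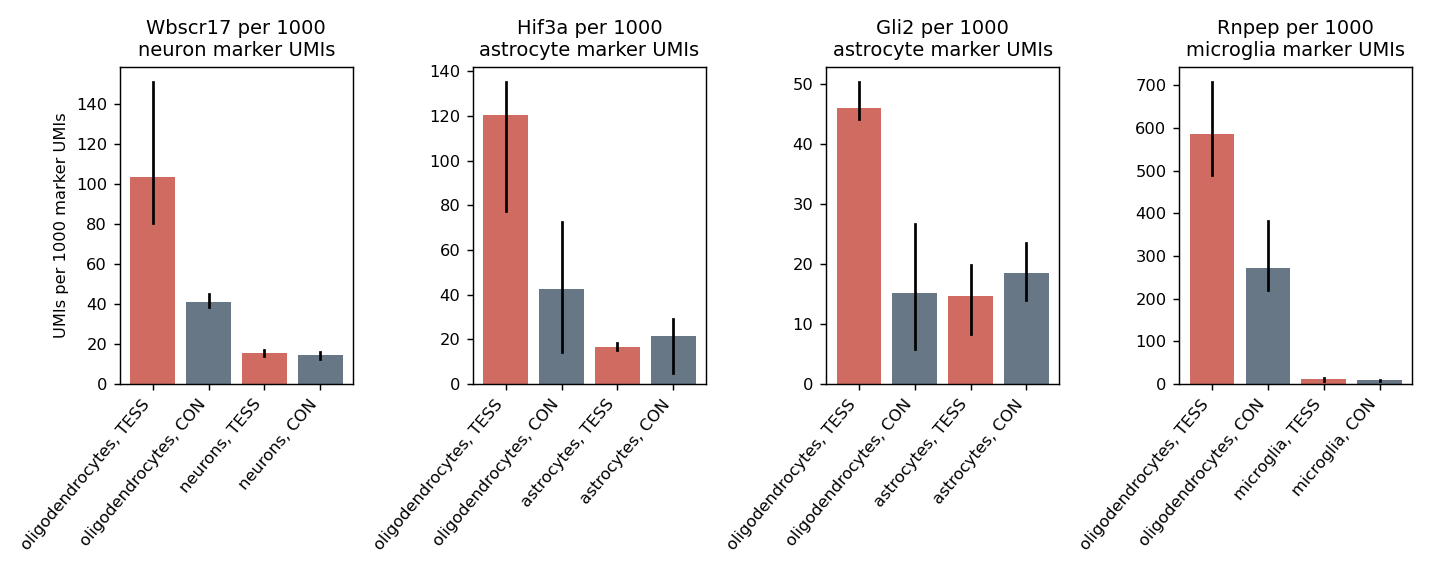
UMIs of 4 genes per 1000 UMIs of the markers of the cell type where each is highest, in oligodendrocytes (left pair) and in that cell type (right pair), TESS left of CON; bars pool the libraries of a group and lines span its 3 libraries. The pooled bars of Wbscr17, Hif3a and Rnpep are higher in oligodendrocytes of both groups than in the other type, though the library ranges of Hif3a overlap in CON; Gli2 is higher in TESS (46.1) but not in CON (15.2).

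Oligodendrocyte nuclei with no UMI of any of the 25 neuron, astrocyte, microglia and endothelial markers were then examined, a choice made after the data were seen. They numbered 1401 in TESS and 2150 in CON and are part of the nuclei that chose the members, so the signs there are a description. In them Hif3a stood at 67.8 ± 22.0 CPM in TESS and 11.8 ± 9.20 CPM in CON (log2 fold change 2.55), and Wbscr17 at 124 to 224 CPM in TESS and 29.8 to 62.6 CPM in CON (1.74). Arrdc2 gave 1.86 and Rnpep 1.29. Arl4d gave 1.72 and lost its call (adjusted p = 0.0563). Gli2 had 16 UMIs in TESS and 2 in CON, Megf6 15 and 3, and Rnf125 12 and 4, too few to be tested.

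The fits that follow use the same libraries whose values chose the members. Positive signs and kept calls in them are therefore a description and no added support. Between libraries, 4 members were called in all 6 fits with 1 library removed: Arrdc2, Wbscr17, Rnpep and Hif3a. Arl4d was called in 3 of the 6 fits, Gli2 in 2, Megf6 in 1 and Rnf125 in none, while the fold changes of all 8 in these fits lay between 1.25 and 2.29 on the log2 scale. Within the batch number that holds both groups, TESS 1 against CON 1 and CON 2, all 8 log2 fold changes were above 0. They were 2.46 for Arl4d, 2.27 for Hif3a, 2.05 for Gli2, 1.71 for Rnf125, 1.60 for Arrdc2, 1.58 for Megf6, 1.44 for Wbscr17 and 1.14 for Rnpep. Only Arl4d, Hif3a, Arrdc2 and Wbscr17 were called in that fit, which has 1 TESS library, assumed to vary like the CON libraries.

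**Figure D5:**
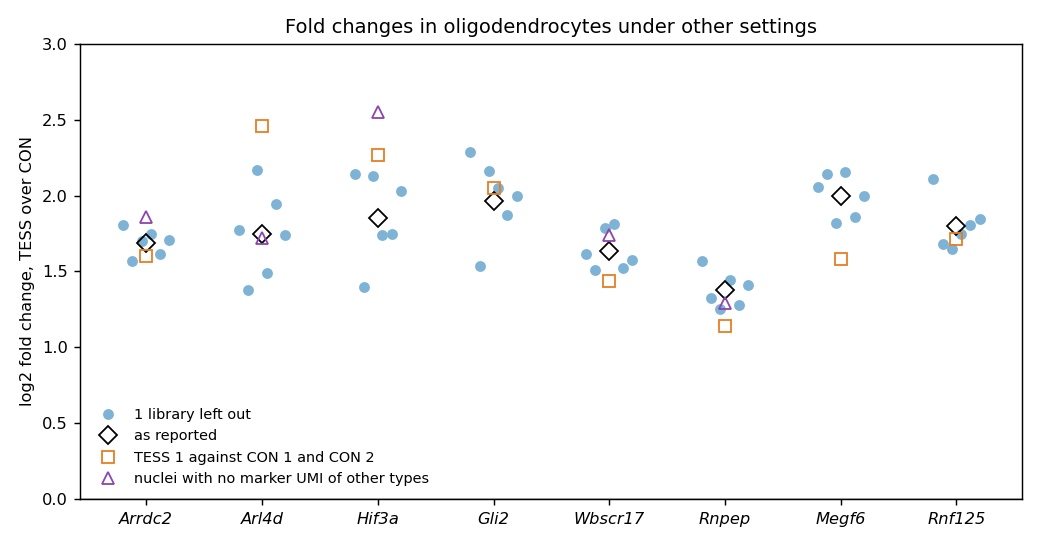
Log2 fold change of TESS over CON in oligodendrocytes for 8 genes as reported (diamonds), with 1 library left out (dots), within the shared batch number (squares) and in nuclei without a marker UMI of 4 other types (triangles, 5 genes tested). All points lie between 1.14 and 2.55, and all come from the libraries that chose the genes. The dots of Hif3a spread from 1.40 to 2.14.

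The glucocorticoid-response genes, which were excluded when the 10 members were chosen, were measured in the same nuclei. Of 14 tested, 6 were called higher in oligodendrocytes and none lower, with a median log2 fold change of 1.05, beside -0.01 for all genes. Both lists were put together with results of these libraries known, so their direction is not independent evidence. Nfkbia, an inhibitor of NF-kB, averaged 86.4 CPM in TESS and 14.4 CPM in CON (2.62 ± 0.30). Sgk1, a kinase gene, averaged 767 and 250 CPM (1.60 ± 0.25), and Fkbp5, a chaperone partner of steroid receptors, averaged 138 and 33.0 CPM (2.05 ± 0.38). Tsc22d3, another classical target, averaged 116 CPM in TESS and 118 CPM in CON (-0.05 ± 0.21, adjusted p = 0.938).

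Across the 36 pairs of cell type and library, the gene most like each member was found among 10190 genes by the correlation of log2 of CPM plus 10. Gli2 was closest to Aldh1l1 (r = 0.92), an astrocyte enzyme, and Hif3a to Rgma (0.82). Wbscr17 was closest to Dync1i1 (0.88), a dynein subunit, Itga5 to Ppm1h (0.89) and Ptgfrn to Ppfibp1 (0.84). Rnpep was closest to 2810474O19Rik (0.78) and Arrdc2 to 4930593A02Rik (0.80), the lowest values among the 10. Arl4d was closest to Hmcn1 (0.84), Megf6 to Cd59a (0.87) and Rnf125 to Sema7a (0.85). These values share libraries and cell types and describe mainly which type a gene is high in.

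The positions of the remaining members on GRCm38 are chr5:130872082-131308497 for Wbscr17, chr1:135262712-135284084 for Rnpep, chr1:118834132-119053619 for Gli2, chr4:154170730-154275713 for Megf6, chr18:20944625-20983862 for Rnf125, chr15:103344286-103366763 for Itga5 and chr3:101040232-101110278 for Ptgfrn. All 10 are protein-coding genes. Whether counting used the strand is not given, so reads of overlapping genes cannot be told apart. Hif3a overlaps 4833404L02Rik, Rnpep overlaps Gm26642 and Gli2 overlaps Mir6346 on the opposite strand. Wbscr17 holds 4 annotated transcripts on its own strand, Megf6 a processed pseudogene, Ptgfrn a sense-intronic transcript and Itga5 a microRNA. Arrdc2, Arl4d and Rnf125 overlap no other annotated gene.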

How the data were processed

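The deposited values are UMI counts of 19954 genes in 18514 nuclei with the authors' cell types; Cell Ranger 2.2.0, Seurat 3, mm10 and GRCm38 are named in the submitters' processing notes. A deposited mitochondrial fraction per nucleus was not used in any result. The sources used here do not give nucleus filters, doublet treatment, or use of introns and strand. Counts were summed per library and cell type and compared, 3 TESS against 3 CON libraries, with edgeR 4.0.16 in R 4.3.3 (quasi-likelihood F test, TMM, filterByExpr with a minimum count of 10, Benjamini-Hochberg over all genes of a type, threshold 0.05), which was tested on simulated data. SE was taken as the absolute log2 fold change over √F. CPM are over all UMIs of the type in a library, as mean ± SD. Alternatives were DESeq2 1.42.0, RLE scaling, no filter, a replicate block, a batch term, the shared batch and each library left out. The batch term and the shared batch both rest on TESS 1 against CON 1 and CON 2. The members and gene lists were chosen with earlier results of these data known. Named are the members, the gene nearest each, list members, and the 2 genes on each side of the threshold; Arrdc3, Hif1a, Slc2a1, Ptch1, Galnt6, Rnpepl1, Megf10, Itgb1 and Tsc22d3 were picked from the lists after their values were seen. Positions are from GENCODE vM21.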

Additional observations from a re-analysis of the deposited data

How the results depend on the processing

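The 8 members tested in oligodendrocytes kept a positive fold change under each alternative that could be fitted. All alternatives use the libraries that chose the members, so this sign was largely set by the choice. TESS 2, TESS 3 and CON 3 each have a batch number of their own. The fold changes with a batch term therefore rest on TESS 1 against CON 1 and CON 2, as within the shared batch. The number called (8) was 5 with DESeq2, which gave the other 3 (Gli2, Megf6, Rnf125) no adjusted p, 5 with a batch term, 4 within the shared batch, 4 in nuclei without other markers and 4 to 6 with 1 library left out. RLE scaling gave 7, without Rnf125. Genes called in oligodendrocytes (145) were 270 without the filter, 73 with a batch term, 35 within the shared batch, 82 in nuclei without other markers and 32 to 164 with 1 library left out; the lowest counts were without TESS 3 (32) and without CON 2 (38). In astrocytes (20 called) they were 6 with DESeq2, 3 with a batch term, 0 within the shared batch (122 at an unadjusted p under 0.05) and 8 to 22 with 1 library left out. In microglia (15) they were 27 without the filter, 101 with the replicate block, 8 with a batch term, 5 within the shared batch and 1 to 48. In precursor cells (2) they were 1 with DESeq2, 8 without the filter, 12 with the block, 1 with a batch term and 2 to 14. In endothelial cells (9) they were 2 with DESeq2, 18 without the filter, 19 with the block, 0 with a batch term and within the shared batch (29 and 34 unadjusted) and 0 to 7. In neurons (122) they were 335 without the filter, 0 with a batch term and within the shared batch (765 and 843 unadjusted) and 19 to 105. The causes were not tested.

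Values near 0 changed sign. Gli2 in astrocytes was 0.34 with a batch term and 0.31 within the shared batch, and -0.26 to 0.30 with 1 library left out. Hif3a in astrocytes was 0.088 with DESeq2, 0.18 with the block and -0.36 to 0.50. Rnpep in microglia was -0.053 to 0.53, Wbscr17 in neurons -0.039 to 0.16, and Megf6 in neurons was -0.25 with a batch term and -0.25 within the shared batch. Same-numbered libraries correlated at -0.02 to 0.07 in oligodendrocytes, and in no cell type did all 3 pairs exceed 0.1, so the libraries are taken to share only a number. In microglia each library correlated best with its own number (0.04 to 0.07, against -0.07 to 0.02 for the other pairs), a hint from the data and not from the design, and endothelial pairs ranged from -0.12 to 0.33. The replicate block called 217 genes and 7 members in oligodendrocytes (Rnf125 at an adjusted p of 0.063) and 169 genes in neurons. With 13 to 42 CON UMIs for Rnf125, Megf6, Gli2, Arl4d and Hif3a, depth limits their fold changes.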
